A study of Mus musculus with 8 samples.

Results

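The levels of 9 genes of fibroblast growth factor (FGF) and C-type natriuretic peptide signaling were compared between the resting and the proliferative zone of the mouse growth plate. The genes were the receptors *Fgfr1*, *Fgfr2*, *Fgfr3* and *Fgfrl1*, the feedback inhibitors *Spry1*, *Spry2*, *Spry4* and *Dusp6*, and the natriuretic peptide receptor *Npr2*. They were chosen by symbol, and all 9 were found among the 43629 genes of the deposited count table. Of the 9, 7 passed edgeR's filter on low counts, which *Spry1* and *Spry4* did not pass.

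FGFs bind receptor tyrosine kinases together with heparan sulfate chains, and the receptors signal through RAS and ERK, through phospholipase C and through STAT factors. ERK signaling is limited from within by the Sprouty proteins, which act on the path from receptor to RAS and RAF, and by the phosphatase encoded by *Dusp6*, which inactivates ERK. In the growth plate FGFR3 is known as a brake on chondrocyte proliferation, and activating mutations of it cause achondroplasia. C-type natriuretic peptide acts through the receptor guanylyl cyclase encoded by *Npr2*, and the cGMP that it makes counters FGFR3 signaling at the level of RAF.

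The libraries came from 4 Axin2CreERT2;R26RTdTomato mice, 2 male (mice 1 and 2) and 2 female (mice 6 and 13). All mice carried both alleles and received 3 daily tamoxifen injections from P23, and tissue was taken at P30, so the zones did not differ in genotype, treatment or age. From 8 μm frozen sections a laser cut out TdTomato-positive resting chondrocytes and, at least 50 μm from the secondary ossification center, unlabeled flat proliferative chondrocytes. Each mouse gave 1 library of each zone (n = 4 a zone). The Cre is driven by *Axin2*, so the label marks cells that expressed *Axin2* when tamoxifen was given and their descendants. The sample labels name tibiae, and the paper names tibia and femur. The RNA went through 2 rounds of in vitro transcription before library preparation.

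The libraries held 192882 to 462044 counts (resting) and 249284 to 631474 counts (proliferative). A count of 0 allows up to 3 counts, or 5.97 to 14.7 CPM (counts scaled to a common library size with TMM factors) in a resting library and 4.81 to 12.4 CPM in a proliferative one. Such limits and all counting intervals cover counting error only, because amplified reads are not independent molecules. They hold for the reads as counted, and how strand was handled in the counting is not given in the sources used here. All 12 chondrocyte markers had counts, with a summed level of 7541 to 19580 CPM among resting libraries and 35160 to 60290 CPM among proliferative ones. The sum of 11 resting zone markers was 510 to 1078 CPM among resting libraries and 29.0 to 71.8 CPM among proliferative ones. *Axin2* had 0 counts in each resting library and 1 count in all, in the proliferative library of mouse 1. The resting libraries also held markers of bone and marrow. The sum of 9 osteoblast and osteocyte markers was 8804 to 36930 CPM there and exceeded the chondrocyte sum in mice 1, 2 and 13, against 806 to 4083 CPM in the proliferative zone. The sum of 9 osteoclast markers was 1559 to 4741 CPM against 78.8 to 479 CPM, and that of 8 neutrophil markers 3126 to 3864 CPM against 0 to 532 CPM. No gene of these lists was at 0 in every library.

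Promoter sequences are shown for *Spry2* and *Dusp6*, which were the members with the largest log2 fold changes among those tested, and for *Fgfr2* and *Fgfr3*, whose levels leaned to opposite zones. They were read from RefSeq on GRCm38.p6, where 7 of the 9 members matched and *Fgfr1* and *Spry4* had no entry. Each run is given 5′ to 3′ on the strand of the gene and ends before the first exon of the transcript that starts there. The annotated span of *Fgfr2* reaches beyond its start, through a long transcript that extends to exons of *Ctbp2*, and the window shown lies in no exon of it. Capitals mark matches, on either strand, to ETS (CCGGAAG), GC box (GGGCGG), AP-1 (TGANTCA), CRE (TGACGTCA) or SOX (AACAAT) letters.
Spry2, chr14:105896820-105897069, minus strand: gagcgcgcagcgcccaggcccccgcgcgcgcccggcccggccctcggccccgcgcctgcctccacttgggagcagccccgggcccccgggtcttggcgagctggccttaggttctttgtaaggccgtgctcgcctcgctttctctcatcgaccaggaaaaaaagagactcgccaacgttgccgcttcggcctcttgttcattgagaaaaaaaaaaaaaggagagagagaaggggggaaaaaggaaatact
Dusp6, chr10:99262981-99263230, plus strand: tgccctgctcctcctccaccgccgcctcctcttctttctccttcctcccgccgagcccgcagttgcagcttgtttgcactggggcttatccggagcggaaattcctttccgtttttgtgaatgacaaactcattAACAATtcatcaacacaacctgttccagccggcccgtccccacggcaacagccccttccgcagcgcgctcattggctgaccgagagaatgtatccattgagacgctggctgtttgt
Fgfr2, chr7:130266809-130267058, minus strand: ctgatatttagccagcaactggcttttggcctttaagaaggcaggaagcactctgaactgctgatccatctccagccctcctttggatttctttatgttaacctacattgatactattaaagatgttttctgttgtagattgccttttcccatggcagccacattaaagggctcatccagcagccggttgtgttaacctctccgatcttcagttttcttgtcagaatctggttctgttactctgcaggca
Fgfr3, upstream start site, chr5:33721474-33721673, plus strand: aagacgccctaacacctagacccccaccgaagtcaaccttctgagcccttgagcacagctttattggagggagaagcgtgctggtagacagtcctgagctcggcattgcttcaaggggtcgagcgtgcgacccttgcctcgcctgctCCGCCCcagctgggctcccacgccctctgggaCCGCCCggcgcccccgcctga
The *Dusp6* window held 1 SOX match, and the *Fgfr3* window shown held 2 GC boxes in a 200-base run. The window of another *Fgfr3* start site, chr5:33722056-33722305, is not shown. It also held 2 GC boxes, with a G and C content of 72.8%. The windows of *Spry2* and *Fgfr2* held no match to any of the 5. Among all 32851 promoters of the reference, a window of 250 bases held the ETS letters in 6.91%, the GC box in 32.7%, the AP-1 letters in 6.75%, the CRE in 1.55% and the SOX letters in 9.42%. The G and C content was 62.4% for *Spry2*, 56.4% for *Dusp6*, 44% for *Fgfr2* and 65% for *Fgfr3*, against a median of 52.4% over all promoters.

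*Spry2* was called higher in the resting zone, with a mean of 62.3 CPM against 5.28 CPM. *Dusp6* (70.2 against 5.82 CPM) and *Fgfr2* (52.8 against 13.7 CPM) lay higher in every resting library than in any proliferative one but missed the call in the fit by zone, and *Dusp6* passed it with the mouse as a block (edgeR adjusted p = 0.00622). *Fgfr3* was lower in the resting library of 3 of 4 mice. The call was set at an adjusted p below 0.01 and a log2 fold change above 1 or below -1 (edgeR quasi-likelihood test, Benjamini-Hochberg adjustment over 3793 genes). Of the 3793 genes tested, 18% were called, 11% with higher and 6.93% with lower levels in the resting zone, and 31.3% had an adjusted p under 0.05, as had *Fgfr2*, *Spry2* and *Dusp6*. The balance depended on the scaling, since 339 genes were called higher and 359 lower in the resting zone with upper quartile factors, against 419 and 263 here. The median log2 fold change of all tested genes was 0.08 here, -0.14 with upper quartile factors and 0.20 with library totals only, and no tested member changed direction with these scalings. Every log2 fold change is resting over proliferative, and library values are given in the order of mice 1, 2, 6 and 13.

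Among the receptors, *Fgfr2* (chr7:130162451-133123350) encodes the receptor best known in the skeleton from osteoprogenitors and the perichondrium. Its level was 66.8, 25.4, 79.6 and 39.3 CPM in the resting libraries and 15.5, 24.0, 11.2 and 4.15 CPM in the proliferative libraries. Every resting library lay above every proliferative one, although those of mouse 2 were nearly level. The means were 52.8 ± 24.8 CPM and 13.7 ± 8.29 CPM (SD, n = 4), with a log2 fold change of 1.86 (SE 0.52, 95% interval 0.73 to 2.99) and an adjusted p of 0.0166 by the quasi-likelihood test of edgeR, which missed the call. Without the resting library of mouse 6, the gene did not pass the filter. The annotated exons of *Fgfr2* share 314 bases with *Ctbp2*, which had 0 to 5 counts a library. The sum of 8 perichondrium and fibroblast markers was 529 to 857 CPM among resting libraries and 141 to 209 CPM among proliferative ones, and its part in the *Fgfr2* difference was not tested.

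*Fgfr3* (chr5:33721674-33737068) had 45.6, 38.0, 222.8 and 29.4 CPM in the resting libraries and 120.4, 128.4, 144.2 and 182.5 CPM in the proliferative libraries. The resting library of mouse 6 lay above all 7 others, and the other 3 resting libraries lay below every proliferative library. With all libraries the log2 fold change was -0.69 (SE 0.54, 95% interval -1.86 to 0.48; edgeR adjusted p = 0.368). Without the resting library of mouse 6 the resting mean fell from 84.0 ± 92.8 (SD, n = 4) to 37.7 ± 8.07 CPM (SD, n = 3), and *Fgfr3* was then called lower in the resting zone, in a fit that called 22.6% of all genes, with a log2 fold change of -1.91 (SE 0.33, edgeR adjusted p = 0.00122). The same library had the highest chondrocyte marker sum of the resting zone, 19580 CPM against at most 10380 CPM in the others. It also had the highest sum of 6 prehypertrophic markers, 434 CPM against at most 216 CPM, where the proliferative libraries had at least 1299 CPM. The part of these markers in its *Fgfr3* level was not tested.

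*Fgfr1* (chr8:25513654-25575718), a receptor found in many mesenchymal cells and in hypertrophic chondrocytes, showed no common direction. It had 24.3, 12.7, 85.5 and 49.1 CPM in the resting libraries and 46.6, 15.4, 6.41 and 33.2 CPM in the proliferative libraries. The level was higher in the resting library of mice 6 and 13 only, and the zones overlapped. The log2 fold change was 0.83 (SE 0.66, 95% interval -0.60 to 2.27; edgeR adjusted p = 0.377), and it turned to -0.23 without both libraries of mouse 6. *Fgfrl1* (chr5:108692382-108706924) encodes a receptor that binds FGFs but has no kinase domain. Its 18.2, 34.9, 65.7 and 39.3 CPM in the resting zone overlapped with 38.8, 58.2, 22.4 and 12.4 CPM in the proliferative zone. Its log2 fold change was 0.23 (SE 0.52, 95% interval -0.90 to 1.37; edgeR adjusted p = 0.774), and its sign turned without the resting or the proliferative library of mouse 6 (-0.21 and -0.02) or the proliferative library of mouse 13 (-0.11).

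**Figure D1:**
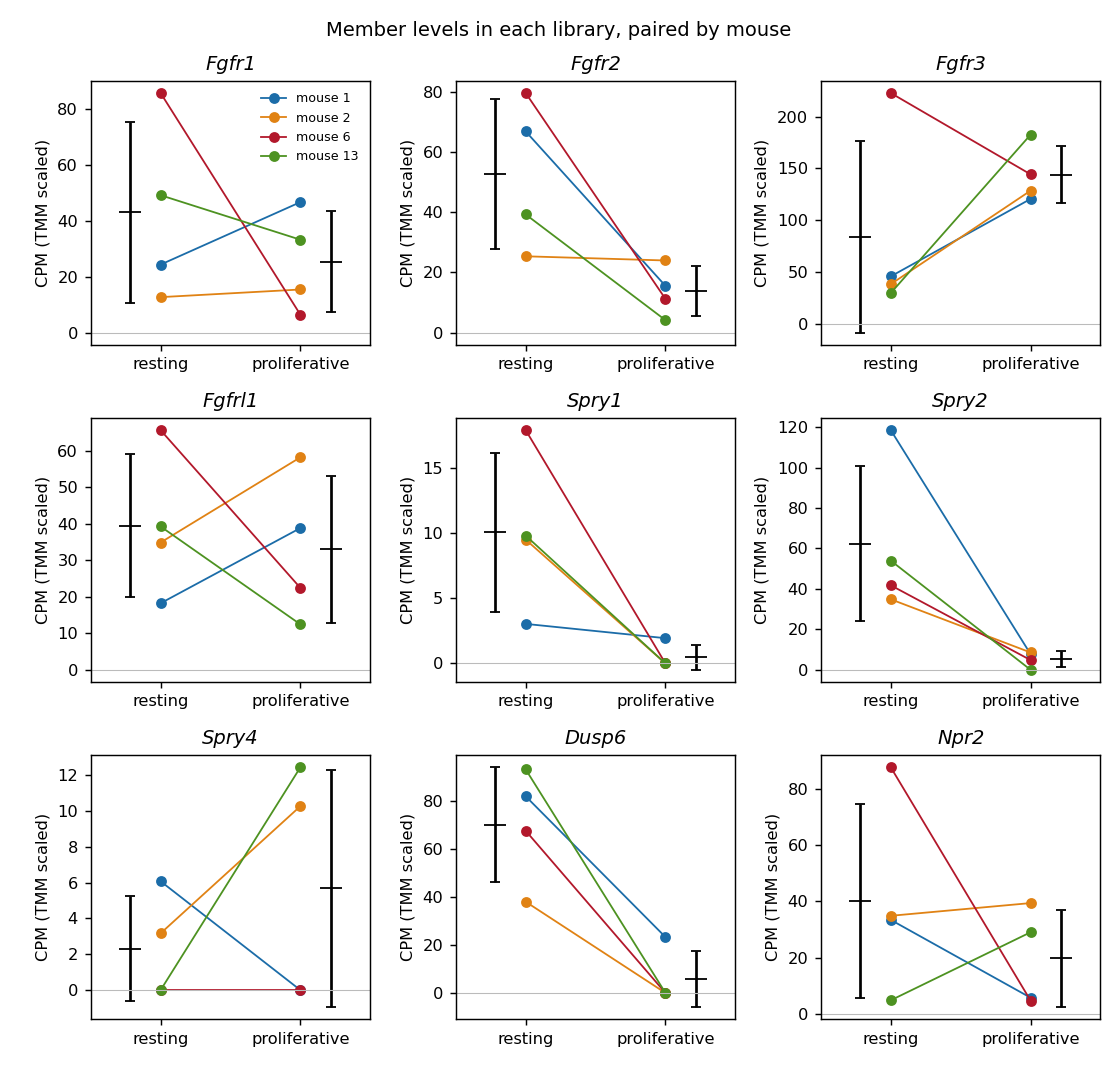
Level of each of the 9 genes in CPM (vertical axes, each with its own scale) in the resting and proliferative libraries, with a line joining the libraries of 1 mouse. Black marks give the mean and the SD of 4 libraries. *Spry2*, *Dusp6* and *Fgfr2* lie higher in every resting library than in any proliferative one, and the *Fgfr3* level of the resting library of mouse 6, 222.8 CPM, stands apart from the other 3.

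The share of *Fgfr3* among the counts of the kinase receptors *Fgfr1*, *Fgfr2* and *Fgfr3* was lower in every resting library than in any proliferative one. A share can fall because the other receptors are higher, and it does not depend on the scaling between libraries. In the resting zone it was 15 of 45 counts (33.3%, exact binomial 95% interval 20.0% to 49.0%) in mouse 1 and 12 of 24 (50%, 29.1% to 70.9%) in mouse 2. It was 112 of 195 counts (57.4%, 50.2% to 64.5%) in mouse 6 and 6 of 24 (25%, 9.77% to 46.7%) in mouse 13. In the proliferative zone *Fgfr3* held most of the receptor counts in every mouse. Its share there was 66.0% of 94 counts (55.5% to 75.4%) in mouse 1, 76.5% of 98 (66.9% to 84.5%) in mouse 2, 89.1% of 101 (81.3% to 94.4%) in mouse 6 and 83.0% of 53 (70.2% to 91.9%) in mouse 13. The resting library was the lower in 4 of 4 mice, and the zones did not overlap. In mouse 6 the *Fgfr3* level itself was higher in the resting library, 222.8 against 144.2 CPM, and the share was lower there beside higher *Fgfr1* (85.5 against 6.41 CPM) and *Fgfr2* (79.6 against 11.2 CPM). The mean share was 41.4% ± 14.9 against 78.7% ± 9.90 (SD, n = 4), a difference of -37.2 percentage points (p = 0.0286 by a two-sided exact permutation test, the lowest that 4 against 4 libraries can give). That test takes the 8 libraries as independent. With the signs of the within-mouse differences exchanged, the two-sided exact permutation p was 0.125, the lowest that this test allows with 4 pairs, so it cannot reach 0.05. With counts divided by exon length the difference was -34.2 points, and with each library left out in turn it lay between -42.5 and -31.7 points.

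**Figure D2:**
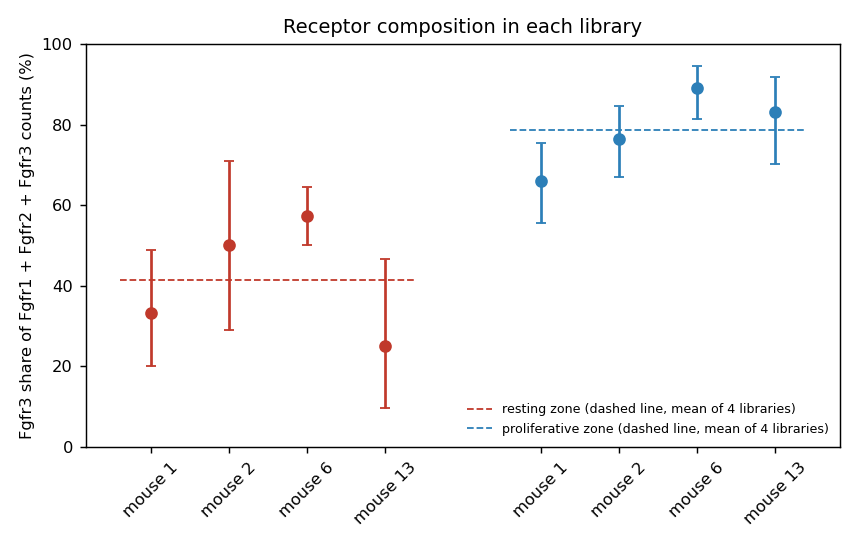
Share of *Fgfr3* among the counts of *Fgfr1*, *Fgfr2* and *Fgfr3* in percent (vertical axis) in each library, with exact binomial 95% intervals as bars and the zone mean as a dashed line. The 4 resting libraries lie between 25% and 57.4% and the 4 proliferative libraries between 66.0% and 89.1%.

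*Spry2* and *Dusp6* gave the largest log2 fold changes of the 7 tested members, and *Spry1* and *Spry4* were sparse. *Spry2* (chr14:105891947-105896819) had 39, 11, 21 and 11 counts in the resting libraries and 4, 5, 3 and 0 in the proliferative libraries. On the CPM scale these were 118.5, 34.9, 41.8 and 54.0 against 7.77, 8.56, 4.81 and 0. The lowest resting library lay well above the highest proliferative one. The mean was 62.3 ± 38.3 CPM against 5.28 ± 3.88 CPM (SD, n = 4), with a log2 fold change of 3.33 (SE 0.61, 95% interval 2.00 to 4.65; edgeR adjusted p = 0.00148). The level was higher in the resting library in 4 of 4 mice, and leaving out the resting library of mouse 1, the highest, left a log2 fold change of 2.80. Over 18 alternatives the adjusted p (edgeR or DESeq2) lay between 7.73e-07 and 0.00822.

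*Dusp6* (chr10:99263231-99267489), a transcriptional target of ERK that encodes an ERK phosphatase, had 27, 12, 34 and 19 counts in the resting zone. In the proliferative zone it had 12 counts in mouse 1 and 0 in the other mice. The CPM values were 82.0, 38.0, 67.6 and 93.2 in the resting libraries and 23.3, 0, 0 and 0 in the proliferative libraries. The zones did not overlap, and mouse 1 alone had the gene in both. The mean was 70.2 ± 23.9 CPM against 5.82 ± 11.7 CPM (SD, n = 4), with a log2 fold change of 3.44 (SE 0.90, 95% interval 1.48 to 5.39). The edgeR adjusted p of 0.0117 lay just above the threshold of the call, and with the mouse as a replicate block it was 0.00622 at a log2 fold change of 4.10. Without the proliferative library of mouse 1 *Dusp6* was called, with an edgeR adjusted p of 0.000250, and no fold is given because the remaining proliferative libraries were at 0. DESeq2 and the likelihood ratio test of edgeR called it as well, with adjusted p of 0.00608 and 0.000898.

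*Spry1* (chr3:37639947-37644598) was sparse, with 1, 3, 9 and 2 counts in the resting libraries and 1, 0, 0 and 0 in the proliferative libraries. In mouse 1 the zones had the same count, so that their order on the CPM scale (3.04 against 1.94) comes from library size alone, and the other mice had counts in the resting library only. The pooled ratio of resting over proliferative CPM was 21.8, with a 95% counting interval of 3.36 to 918. In the edgeR fit over all 17492 genes with a count, in which 7.41% were called, 4.74% with the resting and 2.68% with the proliferative zone higher, its adjusted p was 0.0790. *Spry4* (chr18:38586247-38601415) had 2, 1, 0 and 0 counts in the resting libraries and 0, 6, 0 and 3 in the proliferative libraries. Its pooled ratio was 0.485, with a 95% counting interval of 0.0844 to 1.94 that includes equal levels (edgeR adjusted p = 0.558). At this depth a difference was not detectable for *Spry4*.

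Of the 7 tested members, *Fgfr2*, *Spry2* and *Dusp6* had no overlap of the zones, all 3 with the resting zone above, as had 17.8% of all tested genes. In 15.1% the proliferative zone lay above, which makes 32.9% without overlap. In the proliferative zone these 3 members had at most 24.0 CPM and passed the filter through the resting libraries, where they are high, so their count is a description only. In bulk samples, fewer cells of a type and less RNA per cell cannot be told apart.

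**Figure D3:**
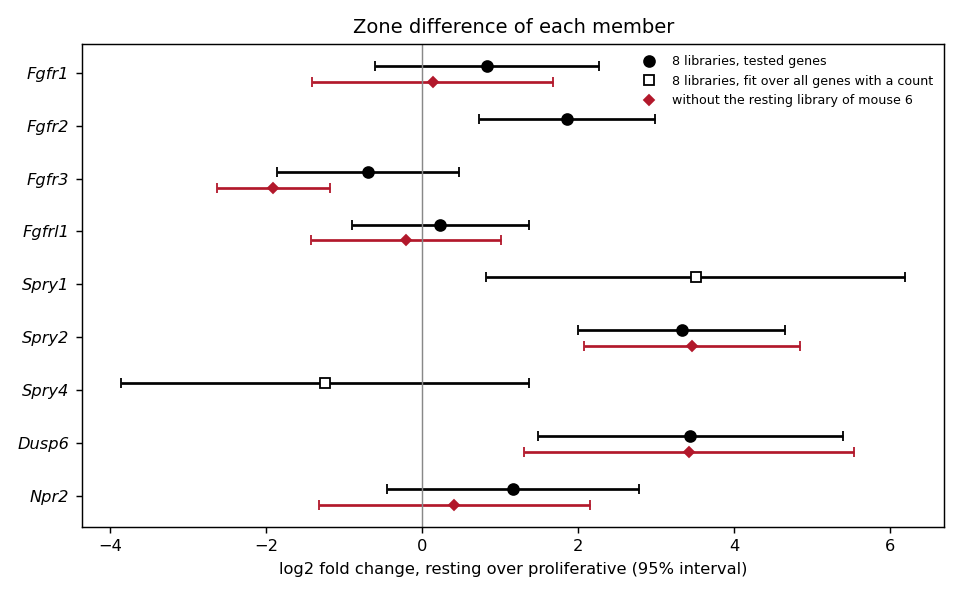
Log2 fold change of each gene, resting over proliferative (horizontal axis), with 95% intervals, from the fit over tested genes (filled circles) or over all genes with a count (open squares), and without the resting library of mouse 6 (red diamonds). *Spry2* and *Dusp6* keep values above 3 in both fits, *Fgfr3* moves from -0.69 to -1.91 and *Fgfr2* did not pass the filter in the second fit.

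From the lowest to the highest resting library, *Dusp6* took the same order as the sum of osteoclast markers, which was 1559 CPM in mouse 2, 3133 CPM in mouse 6, 4408 CPM in mouse 1 and 4741 CPM in mouse 13. Single markers need not follow that order, and *Atp6v0d2* was highest in mouse 6, with 158, 66.6, 191 and 137 CPM in mice 1, 2, 6 and 13. The proliferative library of mouse 1, the only one with *Dusp6*, also had the highest osteoclast sum of its zone, 479 CPM against 78.8 to 141 CPM. It further had the highest erythroid, neutrophil, macrophage and osteoblast sums of that zone, 1724, 532, 483 and 4083 CPM. *Spry2* took the order of the perichondrium and fibroblast sum in both zones. That sum was 857, 529, 635 and 824 CPM in the resting libraries of mice 1, 2, 6 and 13, where *Spry2* had 118.5, 34.9, 41.8 and 54.0 CPM. In the proliferative libraries it was 173, 209, 149 and 141 CPM, beside 7.77, 8.56, 4.81 and 0 CPM of *Spry2*. *Spry2* did not take the order of the osteoblast and osteocyte sum, which was lowest of the resting zone in mouse 6 at 8804 CPM. These orders were picked from 13 marker lists after the values were seen. The part of these cells in the *Dusp6* and *Spry2* differences was not tested.

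**Figure D4:**
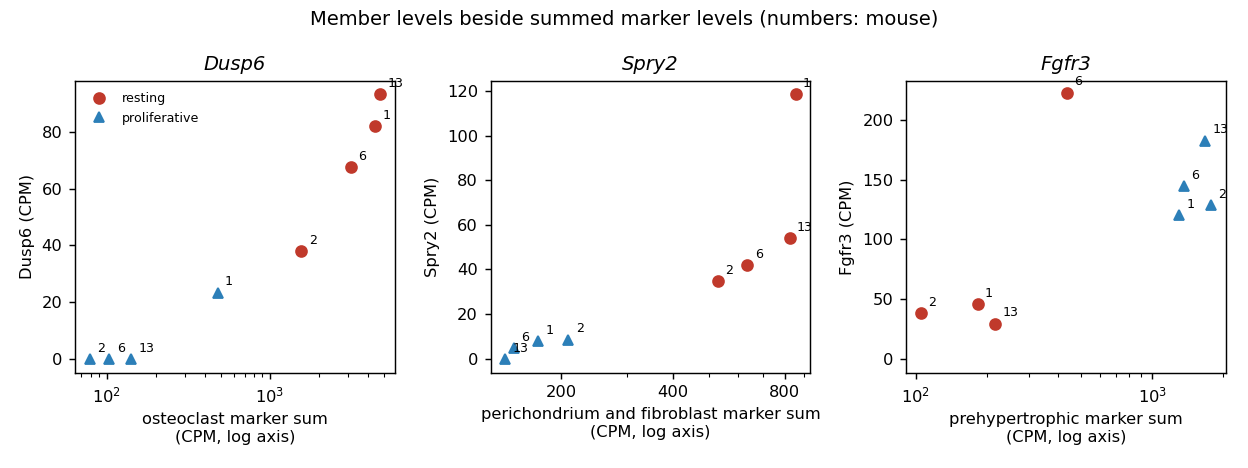
Level of *Dusp6*, *Spry2* and *Fgfr3* in CPM (vertical axes) against the summed CPM of osteoclast, perichondrium and fibroblast, and prehypertrophic markers (horizontal log axes) in each library, numbered by mouse. The 3 pairs were chosen after the values were seen. *Dusp6* and the osteoclast sum share their order in the resting zone, *Spry2* and the perichondrium and fibroblast sum in both zones, and the resting library of mouse 6 has the highest *Fgfr3* at a prehypertrophic sum of 434 CPM.

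*Npr2* (chr4:43631935-43651244) had 33.4, 34.9, 87.5 and 4.91 CPM in the resting libraries and 5.82, 39.4, 4.81 and 29.0 CPM in the proliferative libraries. It was higher in the resting library of mice 1 and 6 and lower in mice 2 and 13, with within-mouse log2 differences of 2.33, -0.17, 3.93 and -2.35 on the log2(CPM + 1) scale. The log2 fold change was 1.16 (SE 0.75, 95% interval -0.46 to 2.78; edgeR adjusted p = 0.274), and without the resting library of mouse 6 it was 0.41. The interval includes equal levels, and the mice differed in sign.

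Per kilobase of annotated exon, the order of the members differed between the zones. In the resting zone *Spry2* (29.8 ± 18.3 CPM per kb) and *Dusp6* (22.4 ± 7.63) led, ahead of *Fgfrl1* (14.2 ± 7.06), *Fgfr3* (11.7 ± 13.0) and *Npr2* (8.61 ± 7.38; SD, n = 4). *Fgfr2* (5.11), *Fgfr1* (4.34), *Spry1* (3.46) and *Spry4* (0.486) followed. In the proliferative zone *Fgfr3* led with 20.1 ± 3.85 CPM per kb, ahead of *Fgfrl1* (11.9 ± 7.20) and *Npr2* (4.23 ± 3.69; SD, n = 4). *Fgfr1* (2.57), *Spry2* (2.53), *Dusp6* (1.86), *Fgfr2* (1.33), *Spry4* (1.19) and *Spry1* (0.167) came after them. Neighbours in either order overlapped in their ranges over the 4 libraries, without exception. Exon length was taken over all annotated isoforms.

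The other genes of these pathways were mostly too sparse to test. Of 113 listed genes, 84 had a count and 29 were tested, of which 1 was called with the resting zone higher and 3 with the proliferative zone higher. These 4 of 29 stand beside 18% called among all tested genes, 11% with the resting and 6.93% with the proliferative zone higher. Of 18 FGF ligands, 15 had no count in any library, and *Fgf2*, the only ligand tested, had a log2 fold change of 0.09 (SE 0.36, edgeR adjusted p = 0.873). Among the co-receptors, 2 of 6 tested genes were called, both lower in the resting zone, and the median log2 fold change was -1.33 against 0.08 over all tested genes. *Sdc2* alone of the 6 had a value above 0 (log2 fold change 1.24, edgeR adjusted p = 0.0235), and it missed the call. *Sdc4*, a heparan sulfate proteoglycan of the cell surface, had 213 ± 89.8 CPM in resting libraries against 1008 ± 118 CPM (SD, n = 4), with a log2 fold change of -2.25 (SE 0.31, edgeR adjusted p = 0.000336). *Gpc1*, a glypican, had 83.3 ± 26.4 CPM against 214 ± 26.6 CPM (SD, n = 4), with a log2 fold change of -1.33 (SE 0.29, edgeR adjusted p = 0.00386). Both were lower in the resting library in 4 of 4 mice. The call of *Gpc1* was lost without the resting library of mouse 1 (edgeR adjusted p = 0.0107) or of mouse 2 (0.01005).

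Inside the cell, no adaptor (3 tested), no member of the RAS and ERK cascade (7 tested) and no other feedback inhibitor of ERK (2 tested) was called. The lowest adjusted p of these lists belonged to the adaptor *Grb2* (log2 fold change 1.48, edgeR adjusted p = 0.0391), the kinase *Araf* (-0.98, 0.115) and the phosphatase *Dusp7* (-0.59, 0.540). Of the 2 ERK target transcription factors tested, *Fosl2*, an AP-1 component, was called higher in the resting zone. It had 115 ± 25.6 CPM against 20.2 ± 12.9 CPM (SD, n = 4) and a log2 fold change of 2.56 (SE 0.54, edgeR adjusted p = 0.00352). The call was lost without the resting library of mouse 1 (edgeR adjusted p = 0.0131) or the proliferative library of mouse 6 (0.0142) or 13 (0.0117), and without both libraries of mouse 6 (0.0110). Of the pathway genes that the filter left out, the edgeR fit over all genes called *Etv5*, *Pde2a* and *Flrt3*, which are named here after their values were seen. That fit called 7.41% of all 17492 genes with a count. Of the listed genes 84 had a count and 29 passed the filter, so these calls are a description only. *Etv5*, another ERK target, had 2, 15, 24 and 2 counts against 1, 0, 0 and 0. Its pooled ratio was 62.5, with a 95% counting interval of 10.6 to 2526, with an edgeR adjusted p of 0.000112. *Pde2a*, a cGMP-stimulated phosphodiesterase, had 14, 10, 14 and 4 counts against 3, 0, 0 and 1, with a pooled ratio of 15.3 (95% counting interval 5.54 to 58.6) and an edgeR adjusted p of 0.00235. *Flrt3*, a membrane protein that binds FGF receptors, had no count in the resting zone and 3, 18, 6 and 0 counts in the proliferative zone. Its edgeR adjusted p was 0.00531, but the zones overlapped (two-sided exact permutation p = 0.143) and most counts came from mouse 2, so no fold is given.

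Among genes of growth arrest, 1 of 6 was called, beside 18% of all tested genes, and the list's median log2 fold change was 0.85 against 0.08 over all tested genes. *Cdkn1c*, an imprinted inhibitor of cyclin-dependent kinases, had 31.9 ± 22.5 CPM in resting libraries against 532 ± 174 CPM (SD, n = 4), with a log2 fold change of -3.98 (SE 0.43, edgeR adjusted p = 0.000120). It was lower in the resting library in 4 of 4 mice. The other 5 had values above 0 that missed the call. They were *Stat5a* (log2 fold change 1.26, edgeR adjusted p = 0.0362), *Socs2* (1.13, 0.0306), *Cdkn1a* (0.85, 0.141), *Cdkn1b* (0.85, 0.0562) and *Stat3* (0.61, 0.0884), of which *Cdkn1b* was called higher in the resting zone without the resting library of mouse 6. Of 16 genes of natriuretic peptide and cGMP signaling, 2 were tested and the edgeR quasi-likelihood fit by zone called neither, and *Nppc*, which encodes C-type natriuretic peptide, and the clearance receptor *Npr3* had no count. *Prkg2*, the cGMP-dependent kinase of the growth plate, had 0, 2, 43 and 3 counts in the resting libraries and 60, 117, 112 and 34 in the proliferative libraries. The proliferative libraries lay above all resting ones on the CPM scale, and the resting library of mouse 6 was again the highest of its zone. The log2 fold change was -2.41 (SE 0.73, edgeR adjusted p = 0.0239). With the mouse as a replicate block it was called, with -3.14 and an adjusted p of 0.00699, and without the resting library of mouse 6 with -4.68 and 0.000272. It was also called by DESeq2 (-2.61, adjusted p = 0.00715), by the likelihood ratio test of edgeR (-2.50, 0.00558) and in the edgeR fit over all genes with a count (-2.61, 5.04e-08).

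**Figure D5:**
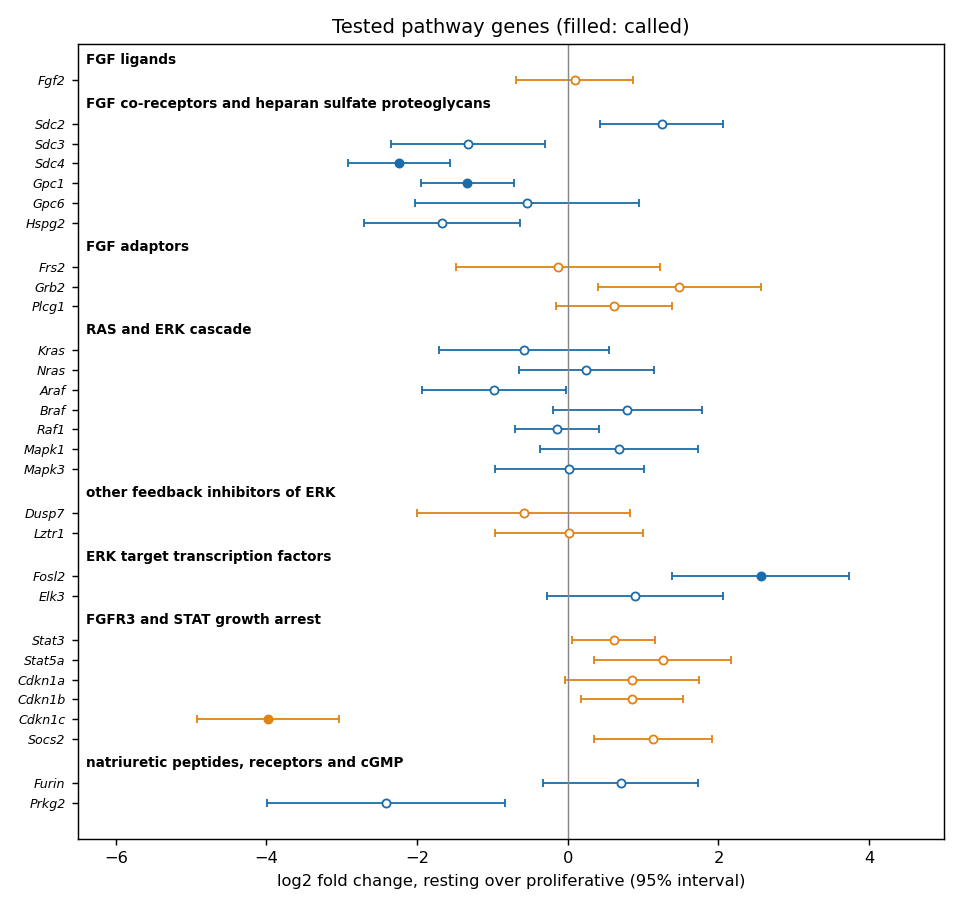
Log2 fold change, resting over proliferative (horizontal axis), with 95% intervals, of the 29 tested pathway genes, grouped by list, with filled points for called genes. *Sdc4*, *Gpc1* and *Cdkn1c* lie to the left and *Fosl2* to the right, and the intervals of 6 of the 7 RAS and ERK cascade genes include 0.

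The zone difference was not shown to depend on sex for any member. In a fit with a zone by sex term (2 mice of each sex), the edgeR adjusted p of the 7 tested members lay between 0.724 and 0.975, and 0 of the 3793 genes passed an adjusted p of 0.01 (250 had an unadjusted p under 0.05). The lowest unadjusted p of a member was that of *Fgfrl1*, 0.0217, with log2 fold changes of -0.85 in males and 1.54 in females. *Fgfr1* (0.0420, -0.72 and 1.72) and *Dusp6* (0.0403, with no fold in females, whose proliferative libraries were at 0) were also under 0.05 unadjusted, as were 6.59% of all tested genes. The female values rest in part on the resting library of mouse 6.

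The genes whose levels were most like those of each member over the 8 libraries were taken from the tested genes. The measure was Pearson's r of log2(CPM + 1), and the libraries share zone, mouse and depth, so that r is a description. Most like *Dusp6* were *Clec4a2*, *Atp6v0d2* and *Ckb*, each with r of 0.995. *Clec4a2* is a myeloid lectin, and *Atp6v0d2* encodes a proton pump subunit of osteoclasts and had 52, 21, 96 and 28 counts in the resting libraries and 13, 0, 0 and 0 in the proliferative libraries. It shares with *Dusp6* the 3 libraries at 0, but not its order among the resting libraries. Most like *Spry2* were *Mxra8* (0.979), *Lrrc47* (0.978) and *Myo10* (0.977). For *Fgfr2* they were *Son* (0.977), *Apbb2* (0.977) and *Fip1l1* (0.975), and for *Fgfr3* they were *Rnf215* (0.990), *Mgea5* (0.988) and *Gm11655* (0.986). For *Fgfr1* they were *Zmym1* (0.917), *Hk1* (0.908) and *Cald1* (0.898), for *Fgfrl1* *Atp5c1* (0.909), *Lrp1* (0.902) and *Gpr62* (0.898), and for *Npr2* *Ttc9c* (0.947), *Pbxip1* (0.924) and *Romo1* (0.898). Between members, *Spry2* and *Fgfr2* had r of 0.936, *Spry2* and *Dusp6* 0.849, and *Spry2* and *Fgfr3* -0.641.

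Reads of an opposite-strand gene can be counted on a member where counting ignored or inverted the strand, and how strand was handled is not given in the sources used here. In the libraries labelled female, *Tsix* had 18683 counts and *Xist*, its opposite-strand partner, 1367. The strand setting bears on every count printed here, those of 0 included, since a setting inverted against the library would leave out a gene's own reads, and this was not tested. Exons of *Fgfr1* overlap 164 bases of *Gm16159*, which had 1 count in all, and those of *Npr2* overlap 266 bases of *Gm12473*, which had none. *Fgfr3* shares 998 bases with *G630022F23Rik* and *Spry1* 710 bases with *Gm42922*, and the count table holds neither of these partners. The part of these partners in the members' counts was not tested.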

How the data were processed

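Per the authors, reads were trimmed (BBDuk), aligned (HISAT2 2.1.0) and assigned to genes (HTSeq 0.11.2) on the Ensembl annotation of GRCm38, and the authors deposited whole-number counts without normalization. From the authors' own comparison table, which also holds CPM, fold changes and p-values, gene symbols only were read.

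Zone, mouse and sex were taken from the sample labels. The counts were tested with edgeR 4.0.16 in R 4.3.3, with TMM factors, the filter by zone (minimum count 10, minimum total 15), the quasi-likelihood test and Benjamini-Hochberg adjustment over all genes tested. The common biological coefficient of variation was 0.380. The model held the zone only, and the mouse entered as a block in an alternative. Libraries with the same number come from the same animal by the labels, so the numbers pair them. After removal of the zone means their deviations correlated by 0.165, 0.0136, 0.137 and 0.0577 in mice 1, 2, 6 and 13. Genes that the filter left out were fitted together with every gene with a count. For single values, an exact permutation test over libraries was used. The fits were tested on simulated counts. DESeq2 1.42.0, other scaling, filters and thresholds and each library left out served as alternatives.

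Exon overlaps and coordinates come from GENCODE M21 on GRCm38, and promoters from RefSeq on GRCm38.p6. Named genes are the members, their opposite-strand partners, the called pathway genes or, in lists without one, the tested gene with the lowest adjusted p, and the 3 genes most like each member. *Etv5*, *Pde2a*, *Flrt3*, *Sdc2*, *Nppc*, *Npr3*, *Stat5a*, *Socs2*, *Cdkn1a*, *Cdkn1b*, *Stat3*, *Ctbp2*, *Axin2*, *Tsix* and *Xist* were named outside this rule, with their values known. Members, lists and tests were chosen with earlier results of these data known. The labels name a library of each zone from each of these 4 mice. The fit by zone takes the 8 libraries as independent, so its p-values measure the spread between libraries within a zone. Only the fit with the mouse as a block and the exchange of signs within mice keep the pairing.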

Additional observations from a re-analysis of the deposited data

Results flagged for a closer look

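In 3 of 20 groups of 4 libraries, a library stood apart from the other 3 by Dixon's criterion, which chance exceeds in about 1 of 20 groups of continuous values. *Fgfr3* in the resting library of mouse 6 was at 222.8 CPM, where the other resting libraries had at most 45.6 CPM. The other flags were fixed by tied zeros, since any count beside 3 libraries at 0 meets the criterion, and that chance level does not apply to them. *Dusp6* in the proliferative library of mouse 1 was at 23.3 CPM, and *Spry1* in the same library was at 1.94 CPM, which is 1 count.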

How the results depend on the processing

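The call of *Spry2* and the direction of the *Fgfr3* share held under every alternative that gave a value, while the *Fgfr3* share difference of -37.2 points had an exact p of 0.125 with the pairing kept, the lowest possible. No member passed a filter of at least 10 counts in every library. *Dusp6* passed the call with the likelihood ratio test (3.46, adjusted p = 0.000898), DESeq2 (3.45), library totals only (3.57), all genes with a count (3.16), the replicate block (4.10) and an adjusted p of 0.05 (3.44), and without single libraries its log2 fold change lay between 2.85 and 7.76, the higher value being fitted against libraries at 0 and no bound. *Fgfr2* passed with the likelihood ratio test and at 0.05 (1.86), and without single libraries it lay between 1.53 and 2.17. *Fgfr3* lay between -1.91 and -0.46 without single libraries and at -1.92 (adjusted p = 0.00354) without both libraries of mouse 6, an alternative added after the data were seen. *Fgfr1* turned to -0.23 and *Fgfrl1* to -0.39 without mouse 6, and *Fgfrl1* lay between -0.21 and 0.57 without single libraries. *Fgf2* turned to -0.13 with upper quartile factors and -0.15 with all genes, and lay between -0.19 and 0.26 without single libraries. *Fosl2* and *Gpc1* missed the call in the test against a log2 fold change of 1 (adjusted p = 0.0195 and 0.209). The cause was not tested. The genes called higher in the resting and in the proliferative zone numbered 419 and 263, against 829 and 468 with all genes, 125 and 137 with at least 10 counts in every library, 635 and 427 at an adjusted p of 0.05, and 207 and 82 against a log2 fold change of 1. DESeq2 called 686 in the resting zone. Without single libraries the numbers were 255 to 472 and 183 to 349, lowest without the proliferative library of mouse 2. In the edgeR fits, the replicate block changed the call of *Dusp6* and *Prkg2* and of no other member. It did not change that of *Fgf2*, *Sdc4*, *Gpc1*, *Grb2*, *Araf*, *Dusp7*, *Fosl2* or *Cdkn1c*. For *Sdc2*, *Stat5a*, *Socs2*, *Cdkn1a*, *Cdkn1b* and *Stat3* the block is not reported here. DESeq2 gave no adjusted p for *Spry1* and *Spry4*, and other scaling turned no tested member's direction. At these depths 3 counts are 4.81 to 14.7 CPM, so that differences in *Spry1*, *Spry4* and most listed pathway genes cannot be resolved.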
